A study of Mus musculus with 96 samples.

Results

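The 10 genes described here make and finish the collagen molecule: P4ha1 and P4ha2 (prolyl 4-hydroxylase subunits), Plod1, Plod2 and Plod3 (lysyl hydroxylases), Serpinh1 (the collagen chaperone HSP47), Lox, Loxl1 and Loxl2 (lysyl oxidases) and Bmp1 (procollagen C-proteinase). They were chosen by name and function, with earlier results of these data known, from the 40202 genes listed for every library, and all 10 were found. The libraries were SMART-seq v4 cDNA of single C10 cells, described in the labels as mouse lung alveolar type II epithelium, prepared with nanoSPLITS, a method that divides the contents of a sorted cell between an RNA and a protein measurement. The 48 control cells had no treatment. The other 48 had received RO-3306, a small-molecule inhibitor of the mitotic kinase CDK1, at a labelled dose of 10 nM for 36 h. That dose is low for this compound, and its unit could not be checked from the files. No other allele, agent or genotype is named for either group, and the labels do not say how many cultures or passages the cells came from.

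Collagen chains are translated into the endoplasmic reticulum, where prolyl 4-hydroxylases stabilise the future triple helix and lysyl hydroxylases mark the lysines that later carry sugars and crosslinks. HSP47 binds the folded helix and escorts it out. Outside the cell, BMP1 trims the C-terminal propeptide so that fibrils can form, and lysyl oxidases convert lysines to aldehydes that join neighbouring molecules. Fibroblasts are the best known users of this machinery, and lung fibrosis is the setting in which it is most often studied.

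A library was kept if it reached 50000 counts and 1000 detected genes, which left 29 control cells (59979 to 6457215 counts, 66034079 in sum) and 37 RO-3306 cells (295005 to 5321880 counts, 92828839 in sum). Since no culture is named, each group was 1 sample: differences have no replicate check and no test was made, and every interval below is a 95% interval for counting error only. A gene was called lower or higher when its level, in counts per 1000000 of the group sum (CPM), differed by at least 2-fold after 1 CPM was added, with the same sign in all 4 lettered sets of the titles, A to D. The meaning of the letters is not given, and the sets are not replicates. Across the 9374 genes that reached 5 CPM, log2 ratios of RO-3306 to control had a median of −0.22, and 59.0% of the ratios were below 0.

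Most markers of the labelled cell type were at or near 0. Of 7 alveolar type II markers, 4 (Sftpa1, Sftpc, Sftpd and Slc34a2) were at 0 in all kept cells. The list summed to 9.61 CPM in control against 5.40 in RO-3306, from 0 to 109 CPM per control cell and from 0 to 124 per RO-3306 cell. Nearly all of this was Abca3 (9.38 and 5.21 CPM), with a count in 7 of 29 control and 12 of 37 RO-3306 cells. Sftpb (0 and 0.0862 CPM) and Lamp3 (0.227 and 0.108 CPM) made up the rest. The 8 mesenchymal markers summed to 4901 and 2349 CPM (1092 to 11321 and 1046 to 7262 CPM per cell), with Thy1 at 0. Much of this sum was Vim (2427 and 1264 CPM) and Acta2 (1052 and 837 CPM). Col1a1 had a count in all kept cells. Col1a2 had one in 2 of 29 control and 11 of 37 RO-3306 cells, and Pdgfrb in 7 of 29 and 2 of 37. The 5 alveolar type I markers summed to 1162 and 1001 CPM, nearly all of it Cav1 (1111 and 963 CPM), with Ager and Aqp5 at 0. The span of Aqp5 is wholly shared with another gene, so its 0 is uncertain. The 6 epithelial markers summed to 1.78 and 0.978 CPM, the 6 macrophage markers to 2.65 and 0.148 CPM, and the 4 endothelial markers to 0.619 and 0.149 CPM. The part of the mesenchymal markers in the results below was not tested.

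Of the RO-3306 cells, 1 stood apart and touches several results below. The library labelled RO-3306 A11 held 515218 counts over 3178 genes. Mitochondrial counts reached at most 6.03% in kept control cells and had a median of 4.42% (highest 56.0%) in kept RO-3306 cells. In this library they were 18.1%. The library had no count of Cd68, Gsta1, Gsta2, Gm3776 or Aldh3a1, 5 genes picked after their values were seen. Each of the other 36 RO-3306 cells had a count of at least 1 of them. In 14 of 29 control cells all 5 were also at 0. The same cell held 10610 CPM of the 10 collagen chain genes listed further on, against a highest value of 2192 CPM in the other RO-3306 cells and 4332 CPM in control. Whether its label is right cannot be told from the files. For Serpinh1, Lox, P4ha2 and the chains, ratios or spreads without it stand beside those with it.

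Among the 10 genes, 3 were called lower with RO-3306 (Serpinh1, Lox and Loxl2) and none higher, where 6.43% and 7.23% of all 9374 genes were. Of the 10, 9 reached 5 CPM, the exception being Loxl1. The median log2 ratio of those 9 was −0.61, against −0.22 for all genes, and 8 of the 9 ratios were below 0. That median rested in part on single cells and sets. It was −0.72, −1.33, 0.05 and −1.32 in sets A, B, C and D, and −0.10 without control cell B4, the deepest library, where the median of all genes was −0.19. With equal weight for each set it was 0.0064, and that of all genes 0.15. The summed level of all 10 genes was 1222 CPM in control against 504 CPM in RO-3306, and without Lox 574 and 344 CPM.

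**Figure D1:**
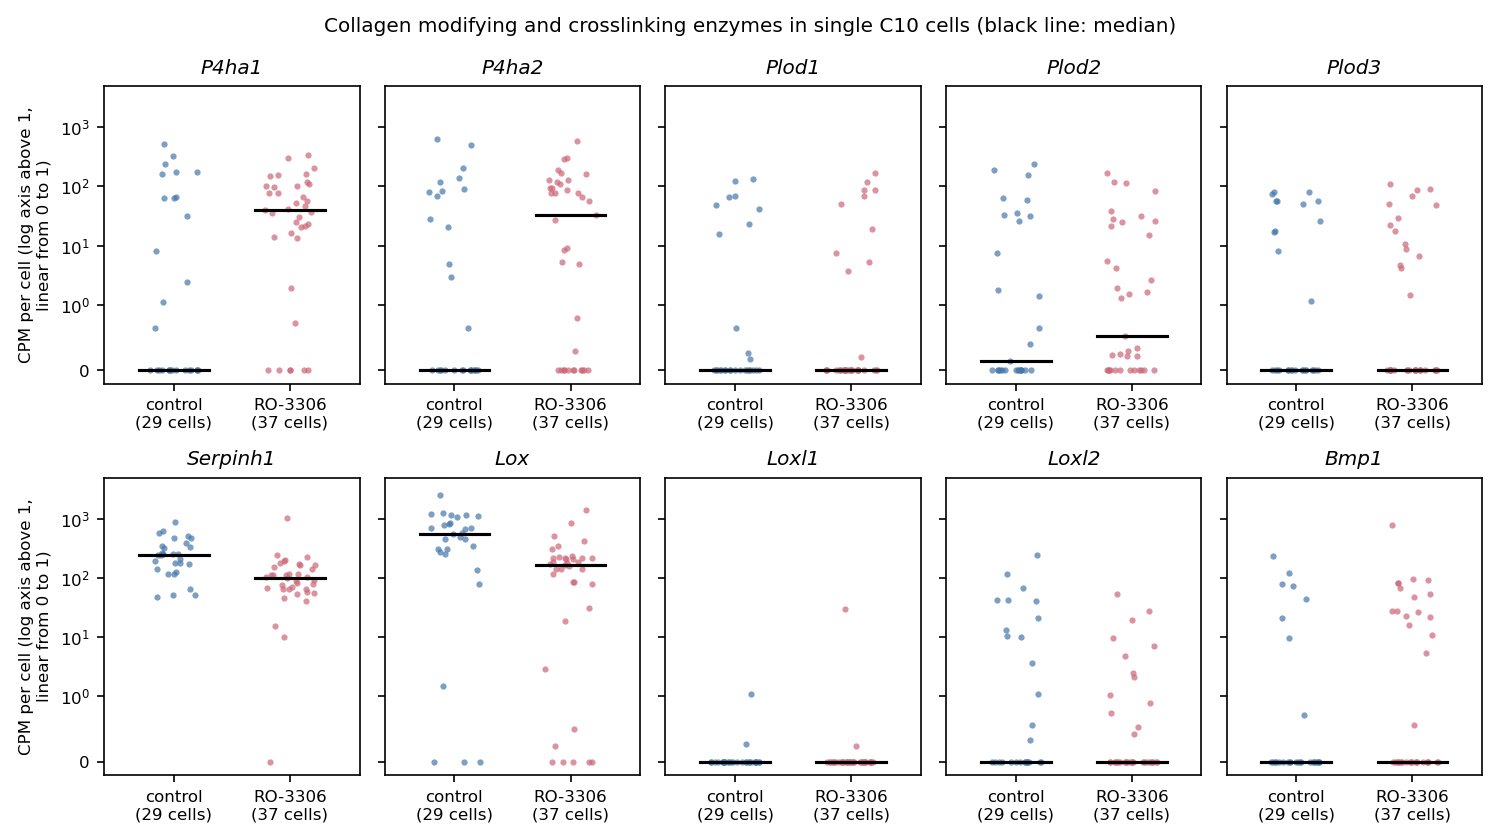
CPM of each of the 10 genes in every kept cell (points; y axis logarithmic above 1 CPM and linear from 0 to 1), for 29 control and 37 RO-3306 cells, with the group median as a black line. The medians of Serpinh1 (246 and 99.9 CPM) and Lox (564 and 165 CPM) are lower in RO-3306, while most other genes have many cells at 0 in both groups.

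Lox, the enzyme that starts collagen and elastin crosslinking and the best known member of its family, had the highest level of the 10 in control cells, per mRNA length too. The gene spans bases 52649132 to 52662939 of chromosome 18 on the minus strand (GRCm39, as are all gene spans here). In control cells it ranged from 0 to 2538 CPM with a median of 564 CPM. In RO-3306 cells the range was 0 to 1391 CPM with a median of 165 CPM. The groups overlapped, but 35 of the 37 RO-3306 cells lay below the control median and 31 below the lower control quartile of 273 CPM.

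From summed counts, Lox stood at 648 CPM (642 to 654) in control against 159.8 CPM (157 to 162) in RO-3306, 4.06-fold lower (3.98 to 4.13), a log2 ratio of −2.01. The set ratios were −1.56, −2.23, −1.75 and −2.91. The highest RO-3306 cell was A11, and without it the RO-3306 level was 153 CPM and the ratio −2.08. Lox was called lower under all 17 alternatives that recomputed it. The smallest value came from subtracting the median ratio of genes of like mRNA length, since long transcripts as a class were lower: genes near its length of 4741 nt had a median of −0.64, which left −1.37. The share of cells with a count, after each cell was thinned to 639000 reads, was 24 of 25 in control (96%, 79.6% to 99.9%) and 27 of 34 in RO-3306 (79.4%, 62.1% to 91.3%). Most RO-3306 cells thus still held Lox, and among cells with a count at full depth the median was 631 CPM in control against 183 CPM in RO-3306.

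Loxl2, a lysyl oxidase with scavenger receptor domains that acts on basement membrane collagen, was a low gene in both groups (chromosome 14, 69846085 to 69933283, plus strand). It was found in 14 of 29 control and 13 of 37 RO-3306 cells, with medians of 0 and highest cells of 243 and 53.9 CPM. The groups overlapped at 0, and the upper end of the control cells lay higher. The summed level was 22.3 CPM (21.2 to 23.4) in control against 3.40 CPM (3.04 to 3.80) in RO-3306, 6.56-fold lower (5.79 to 7.41), a log2 ratio of −2.40.

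The Loxl2 set ratios of −0.70, −3.07, −4.70 and −2.97 were all below 0, but few cells carried them. Control cell C8 held 28.4% of the control counts. Without the top cell of each group the ratio was −2.34 and the sign in set C turned, so the call was lost. Without set A the ratio was −3.25, without set C −1.78, and after subtraction of the length median (−0.85 for its 5316 nt) −1.56. Of its span, 36.6% is shared with Gm27177 and Mir6950, and reads there may have gone uncounted. The count was fractional, from reads placed at several sites, in 11 of the 14 control and 3 of the 13 RO-3306 cells that had one.

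Loxl1, the family member tied to elastic fibres, was near absent (chromosome 9, 58195006 to 58220495, minus strand). It had a count in 2 cells of each group and stood at 0.0471 CPM in control against 0.733 CPM in RO-3306, where cell B12 held 98.5% of the counts. No direction is given for it. At equal depth Lox and Loxl2 were found together in 11 of 25 cells of the control and 9 of 34 of the RO-3306 group. Loxl2 without Lox was seen in no control cell and 1 RO-3306 cell.

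**Figure D2:**
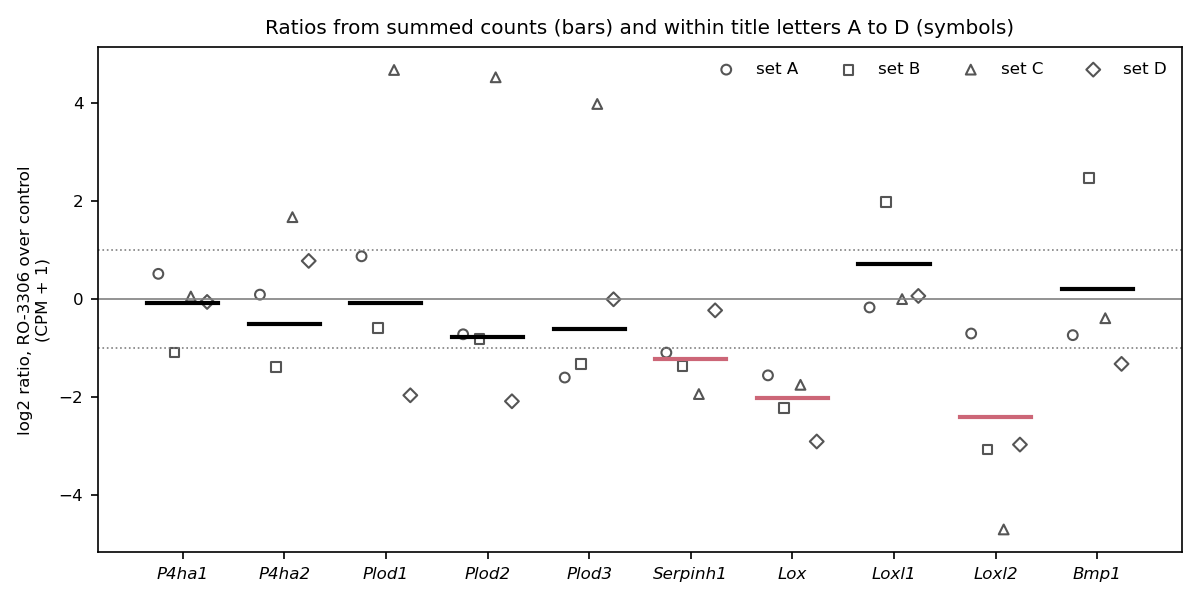
log2 ratio of RO-3306 to control (CPM of summed counts plus 1 CPM) for each gene as a bar, with the ratio inside each lettered set, A to D, as symbols. All 4 symbols lie below 0 for Serpinh1, Lox and Loxl2 (bars at −1.23, −2.01 and −2.40), and the symbols of the other 7 genes lie on both sides of 0.

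Serpinh1 encodes HSP47, a chaperone of the serpin family with procollagen as its main client (chromosome 7, 98994582 to 99002480, minus strand). It was the most widely detected of the 10, with a count in all 29 control and 36 of 37 RO-3306 cells. Control cells ranged from 47.4 to 875 CPM with a median of 246 CPM. RO-3306 cells ranged from 0 to 1028 CPM with a median of 99.9 CPM. Of the 37 RO-3306 cells, 36 lay below the control median, and the exception was A11.

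Summed, Serpinh1 was at 266 CPM (262 to 270.1) in control against 113 CPM (111 to 115) in RO-3306, 2.35-fold lower (2.30 to 2.41), with a log2 ratio of −1.23. Without A11 the RO-3306 level was 108 CPM and the ratio −1.29. The set ratios were −1.09, −1.36, −1.94 and −0.23. Set D was the weakest, and its 5 control cells were low for this gene, at 132 CPM in sum against 249.8 to 468 CPM in the other control sets. With TMM scaling, which moves the median of all genes from −0.22 to −0.06, the ratio was −1.07 but set D no longer lay below 0, and the call was lost.

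The proximal promoter of Serpinh1 is shown because this gene and the prolyl hydroxylases further on have long been studied as targets of stress and hypoxia signalling. It comes from RefSeq on the older build GRCm38.p6, as the 250 bases before the start. The core of the hypoxia response element can read ACGTG or GCGTG, and GCGTG was not searched for. Capitals mark only the letters ACGTG on either strand:
Serpinh1, chr7:99353240-99353489, minus strand: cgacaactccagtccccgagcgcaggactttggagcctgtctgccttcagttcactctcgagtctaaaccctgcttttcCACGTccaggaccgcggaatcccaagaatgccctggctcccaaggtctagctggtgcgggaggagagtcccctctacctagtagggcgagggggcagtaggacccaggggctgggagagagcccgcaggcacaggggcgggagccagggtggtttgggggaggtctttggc
Those letters lie with their first base 171 bases before the start, and 16.6% of 32851 promoters of this length hold them. The paired heat shock units GAANNTTC and TTCNNGAA, read on both strands, had no match in this window. TTCNNGAA had 1 match in the P4ha2 promoter printed further on, 52 bases before the start, and neither unit matched in P4ha1. The units occur in 6.69% and 7.17% of all promoters. A match describes letters only.

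P4ha1 carries the catalytic site of the main prolyl 4-hydroxylase (chromosome 10, 59159019 to 59209126, plus strand), and P4ha2 that of a second form (chromosome 11, 53991750 to 54022494, plus strand). Neither was called in either direction. Both were seen in a larger share of RO-3306 cells. At equal depth P4ha1 had a count in 13 of 25 control cells (52%, 31.3% to 72.2%) against 28 of 34 RO-3306 cells (82.4%, 65.5% to 93.2%). P4ha2 had a count in 11 of 25 control cells (44%, 24.4% to 65.1%) against 23 of 34 RO-3306 cells (67.6%, 49.5% to 82.6%). These were the 2 members with a share at least 20 percentage points higher, a size that 27.1% of all genes reached, and both pairs of intervals overlap. No member was lower by that much, as 2.10% of genes were. Genes detected per cell at this depth had a median of 4551 in control and 5957.5 in RO-3306, and the part of this in the P4ha shares was not tested.

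Per cell, P4ha1 ranged from 0 to 525 CPM with a median of 0 in control, and from 0 to 340.2 CPM with a median of 39.6 CPM in RO-3306. The control cells were thus split, with 15 of 29 at 0 and a few at high levels, while only 6 of 37 RO-3306 cells were at 0. Summed, the 2 groups stood at 75.5 CPM (73.4 to 77.6) and 71.3 CPM (69.6 to 73.0), a log2 ratio of −0.08, with set ratios of 0.52, −1.09, 0.05 and −0.06. Among cells with a count the median was 65.1 CPM in control against 53.1 CPM in RO-3306.

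P4ha2 ranged from 0 to 636 CPM in control cells, median 0, and from 0 to 594 CPM in RO-3306 cells, median 32.3 CPM. Its highest RO-3306 cell was A11. The summed levels were 97.0 CPM (94.6 to 99.4) and 68.0 CPM (66.3 to 69.7), a log2 ratio of −0.51. That sign came from control cell B4, which held 51.3% of the control counts, at 509 CPM. Without B4 the ratio was 0.37, and without A11 −0.57. The set ratios were 0.09, −1.39, 1.67 and 0.78, so that only set B, to which B4 belongs, lay below 0.

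At equal depth both genes had a count in 8 of 25 control cells and neither in 9, while both had one in 19 of 34 RO-3306 cells and neither in 2. Control cell A7 held the highest level of each. The rank correlation of their per-cell levels was 0.46 in control (25 cells) but 0.20 in RO-3306 (34 cells), given as a description of cells that share a library type and depth. Their promoters are shown for comparison, with the same source and capitals as for Serpinh1:
P4ha1, chr10:59323046-59323295, plus strand: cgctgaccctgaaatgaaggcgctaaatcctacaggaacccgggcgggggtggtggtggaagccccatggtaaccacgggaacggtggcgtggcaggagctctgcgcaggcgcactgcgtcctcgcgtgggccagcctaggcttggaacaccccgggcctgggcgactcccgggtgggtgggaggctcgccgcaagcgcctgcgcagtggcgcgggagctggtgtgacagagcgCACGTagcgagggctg
P4ha2, chr11:54100674-54100923, plus strand: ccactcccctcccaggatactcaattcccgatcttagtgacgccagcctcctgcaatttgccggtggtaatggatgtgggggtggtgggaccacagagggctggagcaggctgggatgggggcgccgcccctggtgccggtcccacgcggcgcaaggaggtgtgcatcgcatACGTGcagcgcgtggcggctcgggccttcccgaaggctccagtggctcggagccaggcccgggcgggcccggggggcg
The first base of the marked letters lies 16 bases before the start in P4ha1 and 78 in P4ha2. The windows were 69.6% and 70.0% G and C, against a median of 52.4% over all promoters. Of the 5 members found in the promoter table, the same letters also occurred in Plod3, 54 bases before the start, and not in Plod1.

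**Figure D3:**
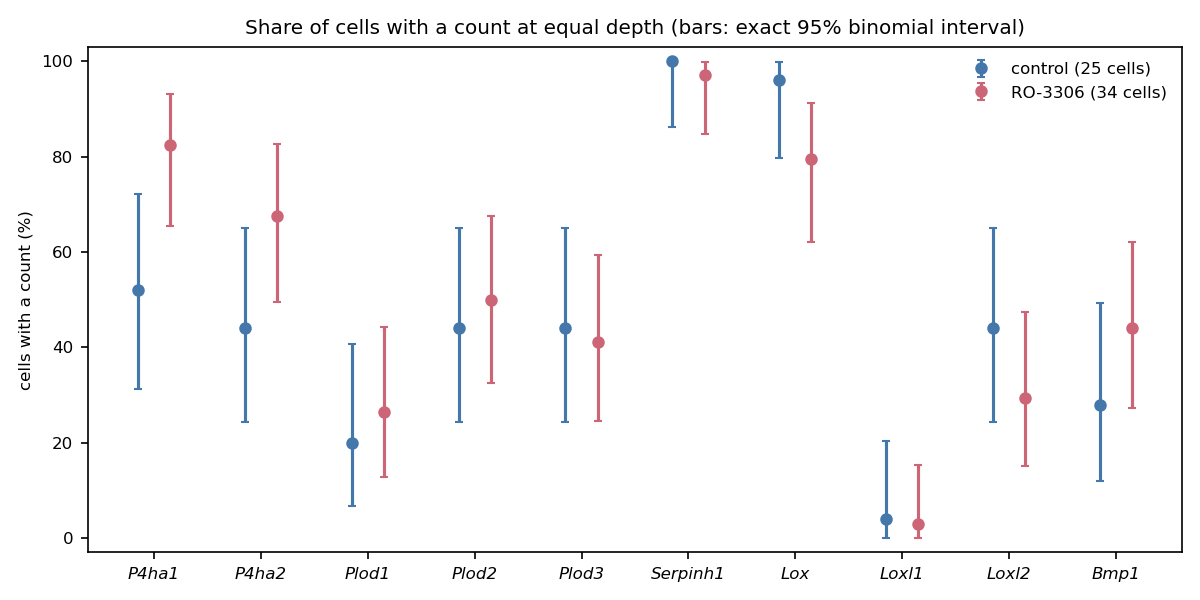
Share of cells with a count of each gene after every cell was thinned to 639000 reads, in 25 control and 34 RO-3306 cells, with exact 95% binomial intervals as bars. P4ha1 (52% and 82.4%) and P4ha2 (44% and 67.6%) are higher in RO-3306, and Lox (96% and 79.4%) and Loxl2 (44% and 29.4%) are lower, with intervals that overlap for each of them.

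The 3 lysyl hydroxylases were lower genes with no call. Plod1, which acts on helical lysines (chromosome 4, 147994210 to 148021233, minus strand), was at 19.3 CPM in control against 18.3 CPM in RO-3306, a log2 ratio of −0.08. It was found in 11 cells of each group, with highest cells of 134 and 167 CPM. The ratio in set C was 4.68, because all 6 control cells of that set were at 0. In the other sets it was 0.87, −0.59 and −1.96.

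Plod2, the form that hydroxylates telopeptide lysines and so favours the stable crosslinks of scar tissue, was at 41.4 CPM in control against 23.7 CPM in RO-3306, a log2 ratio of −0.78 (chromosome 9, 92421828 to 92490481, plus strand). Counts were found in 15 of 29 control and 25 of 37 RO-3306 cells, but were often small. Cells with at least 5 counts numbered 9 in control and 14 in RO-3306, and among cells with any count the medians were 32.1 and 4.20 CPM. Control cell B4 held 44.5% of the control counts, and without it the ratio was −0.10. The set ratios were −0.72, −0.81, 4.53 and −2.09, and without set C, where 1 of 6 control cells had a count, Plod2 was called lower at −1.13. That call needed the same sign in 3 sets only, and 11.5% of all genes were then called lower.

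Plod3, which also adds glucose and galactose to hydroxylysine, was at 29.6 CPM in control against 19.04 CPM in RO-3306 (chromosome 5, 137015873 to 137025500, plus strand). Its log2 ratio was −0.61, with set values of −1.60, −1.33, 3.98 and −0.0038. The highest cells held 81.6 and 111 CPM, and 12 of 29 and 15 of 37 cells had a count. Control set C again held a single cell with a count. With the 4 sets weighted equally, the ratios of Plod1, Plod2 and Plod3 were 0.75, 0.23 and 0.26.

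Counting P4ha1, P4ha2 and the 3 Plod genes together, the median control cell expressed 2 of the 5 hydroxylases at equal depth and the median RO-3306 cell 3. None was seen in 4 control against 2 RO-3306 cells. The median cell of both groups had a count of 5 of the 10 members. The summed level of all 10 at equal depth had a median of 1172 CPM over control cells (326 to 2136) and 462 CPM over RO-3306 cells (144 to 1757). RO-3306 A11 was too shallow to enter this comparison.

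Bmp1, the metalloproteinase that also activates pro-LOX, differed little in summed level, at 22.9 CPM (21.8 to 24.1) in control against 26.5 CPM (25.5 to 27.6) in RO-3306, a log2 ratio of 0.20 (chromosome 14, 70711995 to 70758280, minus strand). A count was seen in 8 of 29 control and 17 of 37 RO-3306 cells. The highest cells were control C12 at 236 CPM and RO-3306 C11 at 775 CPM. C11 is also the RO-3306 cell with no count of Serpinh1 and one of 5 with none of Lox. The set ratios of Bmp1 were −0.74, 2.47, −0.39 and −1.32. Its value depended on the weight of cells: the mean over cells gave 0.93 and leaving out set B gave −0.44.

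**Figure D4:**
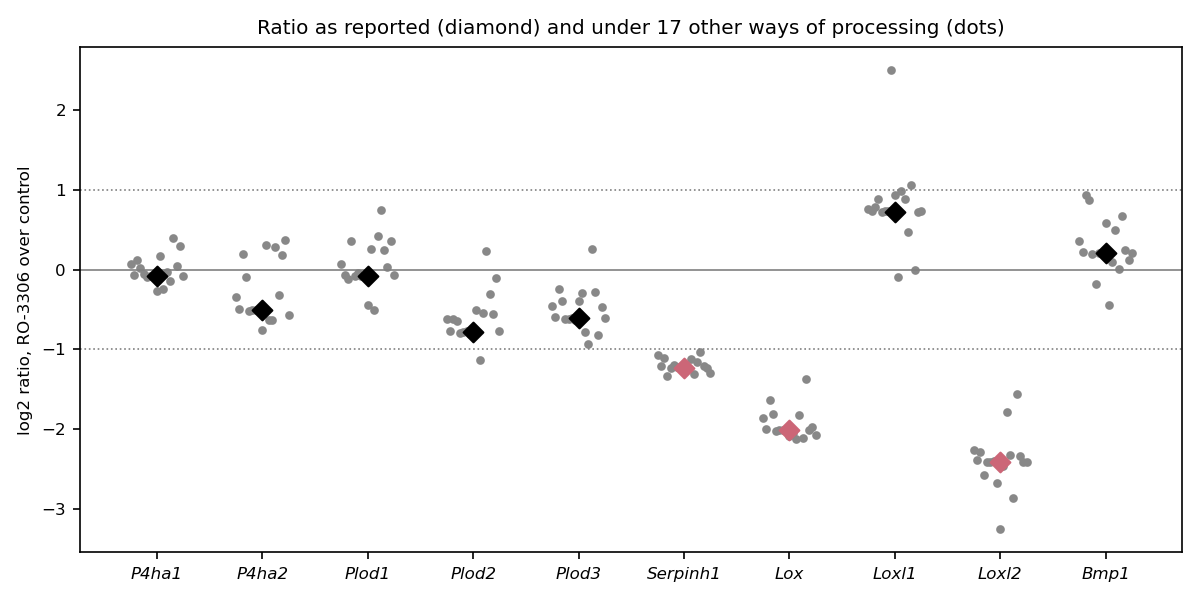
log2 ratio of RO-3306 to control for each gene as reported (diamond; red where called) and under 17 other ways of processing (grey dots), with 2-fold differences as dotted lines. Serpinh1 (−1.34 to −1.04), Lox (−2.12 to −1.37) and Loxl2 (−3.25 to −1.56) stay below −1, and the dots of the other 7 genes reach both sides of 0.

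Parts of 3 spans are shared with other genes, namely 10.9% of Plod3, 4.51% of Plod2 and 3.40% of Bmp1, and reads there may be missing from these values. Levels of different genes were compared per kilobase of mRNA. Counting took in introns, while the length was that of the longest protein-coding transcript, so the order is approximate. In control the order was Lox (137 CPM per kb), Serpinh1 (117), P4ha2 (42.8), P4ha1 (18.7), Plod2 (11.3), Plod3 (9.03), Bmp1 (6.22), Plod1 (5.96), Loxl2 (4.19) and Loxl1 (0.0143). In RO-3306 Serpinh1 came first at 49.8 CPM per kb, followed by Lox at 33.7 and P4ha2 at 30.04. P4ha1 (17.6), Bmp1 (7.20), Plod2 (6.47), Plod3 (5.81), Plod1 (5.63), Loxl2 (0.639) and Loxl1 (0.222) followed. The counting intervals of Bmp1 and Plod1 overlapped in control, as did those of Plod3 and Plod1 in RO-3306, so these neighbours were not ordered. Without control B4 the control values of P4ha2 and Plod2 were 23.1 and 6.95 CPM per kb, so that Plod2 came after Plod3 (8.14), and the intervals of Plod2 and Bmp1 (6.61), and of Plod1 (4.32) and Loxl2 (4.22), overlapped. The coefficient of variation of per-cell CPM was 0.70 for Serpinh1 and 0.86 for Lox in control, and 1.94 and 2.19 for P4ha1 and P4ha2. In RO-3306 cells it was 1.26, 1.30, 1.19 and 1.5 for these 4 genes. Without RO-3306 A11 it was 0.57 for Serpinh1, below the control value, and 1.004 for Lox, 1.16 for P4ha1 and 1.26 for P4ha2.

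Cell by cell, the rank correlation of Serpinh1 and Lox at equal depth was −0.39 across 25 control cells but 0.08 across 34 RO-3306 cells. For Serpinh1 and Col1a1, the gene of the main type I collagen chain, it was 0.53 and 0.36. For Lox and Col3a1 the values were −0.06 and 0.42. Of 3701 genes of at least 50 CPM, those most like each member, by the smaller of the 2 within-group correlations, were Id3 (0.47), Oxr1 (0.45) and Mgat2 (0.45) for Lox. For Serpinh1 they were Lrrc59 (0.46), Rack1 (0.43) and Akr1b3 (0.42), and for P4ha1 Cul4b (0.47), Ccnt1 (0.41) and Akirin1 (0.40). These values are weak, were the highest of many, and are given as a description of cells that share a group and a library type.

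The collagen chains are the substrates of these enzymes. Of 10 chain genes, 9 reached 5 CPM. Of these, 3 were called lower (all genes: 6.43%) and none higher (all genes: 7.23%). The list median log2 ratio was −1.51 against −0.22 for all genes. The chains have long transcripts. Genes of like mRNA length had medians from −0.89 (for Col5a1) to −0.48 (for Col6a1), which were not subtracted here. Col1a1 was at 714 CPM in control against 127 CPM in RO-3306 (log2 ratio −2.48). Col3a1, the type III chain, was at 603 and 83.6 CPM (−2.84), and Col6a2, of the pericellular type VI collagen, at 77.1 and 8.03 CPM (−3.11). Col5a2, a type V chain that regulates fibril diameter, was at 198 and 69.1 CPM (−1.51) with set A above 0. The 10 chains summed to 1862 CPM in control against 397 CPM in RO-3306. Without RO-3306 A11 the RO-3306 sum was 340 CPM, the list median −2.27, and Col5a2 (40.4 CPM) was also called lower (all genes: 6.68%). Without control B4 the control sum was 1614 CPM and the list median −1.14. Col1a1, Col3a1 and Col6a2 were then still called lower (all genes: 6.01%). The ratios of Col6a2 and Col5a2 without B4 were −2.19 and −1.14. Col1a2, the second type I chain, was not called (−0.88). Control cell A1 held 99.9% of its control counts, and its set ratios were −2.71, 4.40, 0 and 2.88. Col1a1, Col1a2 and Col3a1 are among the mesenchymal markers whose summed level was given above.

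Other genes of hydroxylation, folding and glycosylation had 15 of 18 at 5 CPM or more and a median of −0.52. Of these, 3 were called lower (all genes: 6.43%) and none higher (all genes: 7.23%). The 3 were Sparc, a collagen-binding glycoprotein (4032 and 1435 CPM, −1.49), Hsp90b1, the chaperone GRP94 (875 and 310.5 CPM, −1.49), and Creb3l1, a transcription factor of the endoplasmic reticulum that drives collagen genes (124 and 34.8 CPM, −1.80). P4hb, the protein disulphide isomerase that pairs with P4HA1 and P4HA2 in the working enzyme, was not called at 1150.2 and 865 CPM (−0.41). The P4ha subunits and their partner thus lacked a call, as did most genes (6.43% were called lower and 7.23% higher).

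Export and processing had 12 of 16 genes at 5 CPM or more and a median of −0.76. Of these, 2 were called lower (all genes: 6.43%) and none higher (all genes: 7.23%). Sec24d, a COPII coat protein needed for procollagen transport, was at 129 CPM in control against 28.1 CPM in RO-3306 (−2.16). Adamts3, an N-propeptide protease, was at 18.5 and 4.95 CPM (−1.71), but its count was fractional, from reads placed at several sites, in 25 of the 28 control and 30 of the 35 RO-3306 cells that had one, and is uncertain. Pcolce, which enhances BMP1 activity, was at 380 and 192 CPM (−0.98), and Sec13, another coat protein, at 328 and 223 CPM (−0.55). Without RO-3306 A11 Pcolce just reached the call, with 189 CPM in RO-3306. Without control B4 its ratio was −0.61.

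Other crosslinking genes and their partners had 9 of 14 at 5 CPM or more and a median of −0.88. Of these, 2 were called lower (all genes: 6.43%) and none higher (all genes: 7.23%). Tgm2, a transglutaminase that crosslinks glutamine to lysine, was at 47.8 and 6.85 CPM (−2.64). Fmod, a small proteoglycan that binds collagen and guides LOX, was at 64.5 and 0.57 CPM (−5.38), seen in 10 of 29 control against 1 of 37 RO-3306 cells. Without control B4 the ratio of Fmod was −4.57. Without RO-3306 A11 the list had 4 genes called lower (all genes: 6.68%), the added ones being Fn1 and Fbn1. Dcn (834 and 873 CPM) and Efemp2 (792 and 700.0 CPM), which encode decorin and fibulin-4, were not called.

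The last 2 lists cover cofactors and hypoxia, and their counts of calls are near the shares over all genes (6.43% lower and 7.23% higher). Of 12 genes for the supply of ascorbate, copper, iron and 2-oxoglutarate, 11 reached 5 CPM, none was called, and the median was −0.18. Atox1, a copper chaperone, was at 272 and 446 CPM (0.71), Slc31a1, the copper importer, at 138 and 122 CPM (−0.18), Idh1 at 54.5 and 121 CPM (1.13), and Idh2 at 79.5 and 58.8 CPM (−0.43). Without control B4, 1 gene of this list, the glucose transporter Slc2a1, was called higher (all genes: 7.92%). Of 12 hypoxia-inducible genes, 8 reached 5 CPM, 1 was called higher and the median was −0.10. That gene was Bnip3, a mitophagy receptor, at 59.4 and 179 CPM (1.57), seen in 9 of 29 control and 34 of 37 RO-3306 cells. Its count was fractional, from reads placed at several sites, in 5 of these 9 and 31 of these 34 cells, and is uncertain. Control B4 held 59.7% of its control counts, and without it the control level was 26.5 CPM and the ratio 2.71. Ndrg1 was at 84.7 and 145 CPM (0.77), while the glycolytic genes Ldha (671 and 585 CPM, −0.20) and Pgk1 (243 CPM in both, 0.0035) were close between the groups. The span of Pgk1 is wholly shared with another gene, so its counts are uncertain.

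**Figure D5:**
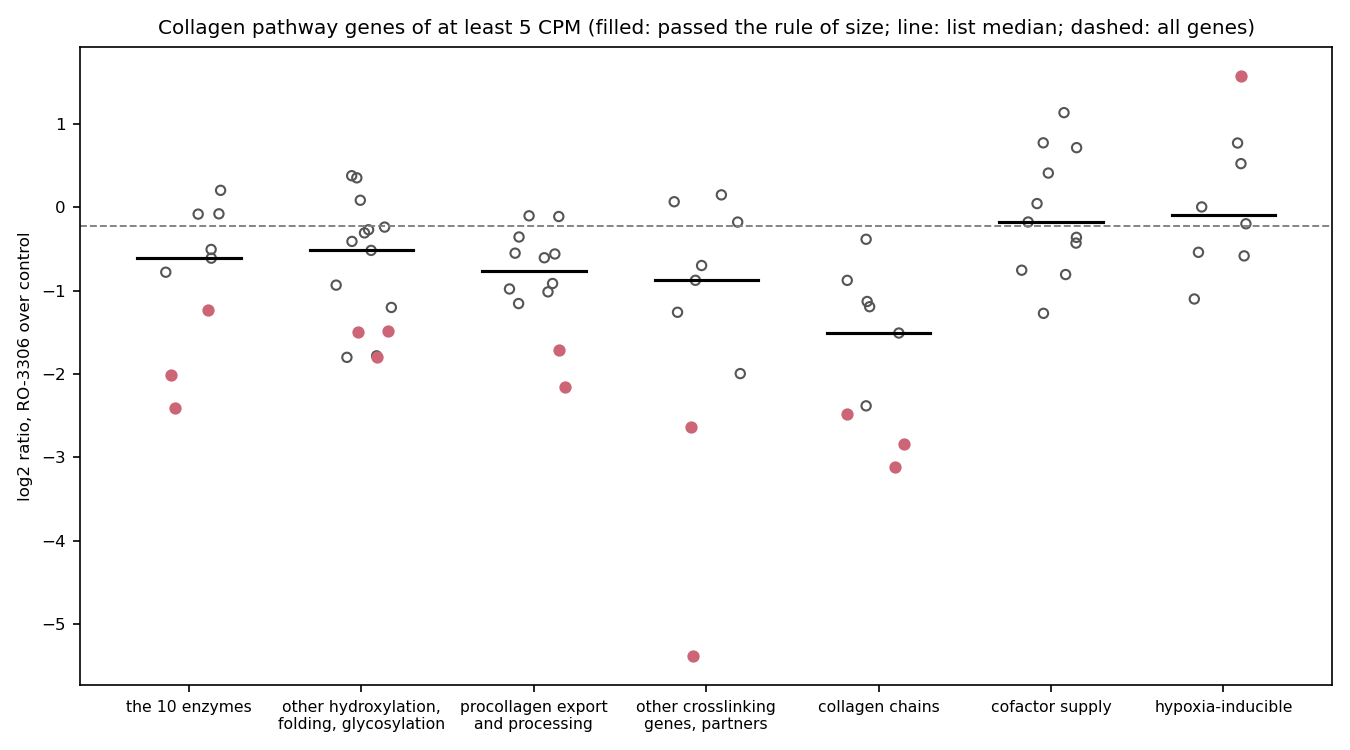
log2 ratio of RO-3306 to control for genes of at least 5 CPM in the 9 enzymes that reached it and in 6 lists of related genes (points; filled where called), with list medians as lines and the median of all genes, −0.22, as a dashed line. The collagen chains lie lowest with a median of −1.51, and the cofactor (−0.18) and hypoxia (−0.10) medians lie near the dashed line.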

How the data were processed

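Single cells of the C10 line were sequenced as 96 libraries. Each file holds expected counts per gene that the authors made with featureCounts 2.0.3 on GRCm39 and its RefSeq annotation, per the file headers. Counting used entire gene spans with their introns, and reads placed at several sites were split into fractions, per the file headers. STAR and FastQC are named in the submitters' processing notes, without versions. No strand option or option for reads over 2 gene spans is recorded. By the tool's defaults strand would be ignored and such reads left out. Yet Pgk1, with a wholly shared span, had a count in 27 of 29 control and 37 of 37 RO-3306 cells. How reads over 2 gene spans were treated is thus not settled. Without molecular identifiers, PCR copies are part of the counts.

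Groups came from the treatment labels, and no 2 kept libraries were identical. Counts of kept cells were summed per group and scaled to CPM, and ratios used a pseudocount of 1 CPM. Genes averaging 5 CPM or more over both groups entered medians and background shares. Intervals are exact Poisson for levels and exact Clopper-Pearson for shares, with fractional counts rounded first. A count means any value above 0. Thinning drew 639000 reads per cell, percentile 10 of kept totals, which left out 4 control and 3 RO-3306 cells. A gene's own share of counts falls when others rise, since CPM are shares of a cell's reads and total RNA was not measured.

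mRNA lengths came from the GENCODE M21 transcript set, an older build, matched by symbol for 97.2% of the 9374 genes, and no coordinates were taken from them. Promoters came from a RefSeq table of GRCm38.p6, in which 5 of the 10 members were found.

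The members and the lists of related genes were chosen with earlier results of these data known. The text names all 10 members. It also names, of each list of related genes, the genes called and, to reach 4, those of highest level. The 3 genes most like each member that had a count in at least 50% of cells of both groups at equal depth are named too. The cell type marker lists are given as sums, with some of their genes named outside this rule. Scaling factors for alternatives came from edgeR 4.0.16 and DESeq2 1.42.0 in R 4.3.3. The rest used Python 3.11.15, numpy 2.4.6, pandas 2.3.3 and scipy 1.17.1, and the steps were tested on simulated data.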

Additional observations from a re-analysis of the deposited data

Results flagged for a closer look

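Libraries under the limits on counts and genes enter no comparison. Among them, the 11 left-out RO-3306 libraries held 196 counts of P4ha1, or 169 CPM (146 to 194), while the 19 left-out control libraries held 0, which allows up to 8.79 CPM by the limit of 3 counts and 10.8 CPM by the exact 95% interval. Of the 196 counts, 192 came from library D5 (773537 counts over 943 genes, 87.3% of them mitochondrial) and 4 from B8.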

How the results depend on the processing

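Serpinh1, Lox and Loxl2 were the genes called lower under most alternatives. The count of members called lower was 3, and it was 2 under TMM scaling (without Serpinh1), 2 among genes of at least 50 CPM (without Loxl2), 2 without the top cell of each gene (without Loxl2) and 4 without set C (with Plod2, where 11.5% of all genes were called lower). No member was called higher under any alternative. The median log2 ratio of −0.61 moved to −0.46 with TMM, −0.24 as a mean over cells, −0.39 with thinned cells, −0.87 for the 4 members of at least 50 CPM, −0.75, −0.44 and −0.78 without sets A, B and C, 0.0064 with sets weighted equally, −0.31 after the length correction and −0.10 without control cell B4. The cause was not tested. Of 170 recomputed member ratios, 81 moved by less than counting error, 89 moved by more, and no called ratio changed sign. P4ha2, not called, ranged from −0.75 to 0.37. Of 40 recomputed shares of cells, 37 stayed within their interval and 3 did not. Leaving out control B4 and RO-3306 A11 was chosen after seeing the data. No paired analysis was possible because each group was 1 sample of single cells and title numbers do not pair them. All members but Serpinh1 and Lox had no count in many cells of 1 or both groups, which limits their ratios.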

Other observations

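The 3-hydroxylation complex and its relatives, looked at after their values were seen, did not move as one. P3h1, the prolyl 3-hydroxylase, was at 35.5 CPM in control against 9.49 CPM in RO-3306 (log2 ratio −1.80), but set C was above 0 and it was not called. P3h4, a partner of the lysyl hydroxylases, was at 131 and 67.9 CPM (−0.93), below 0 in all 4 sets, and was called lower without control B4. Crtap (49.4 and 52.4 CPM) and Ppib (61.4 and 80.2 CPM), which complete the 3-hydroxylase complex, had ratios of 0.08 and 0.38. Hspa5, the chaperone BiP, was at 86.5 and 37.1 CPM (−1.20), with set A at 0.02 and thus no call. Of its span 81.0% is shared with another gene, so its counts are uncertain, and without control B4 the ratio was −0.75.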
